A study of Mus musculus with 2 samples.

Results

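The Mir26 genes are a family of 3 microRNA (miRNA) genes of the mouse, Mir26a-1, Mir26a-2 and Mir26b, which lie in the phosphatase genes Ctdspl, Ctdsp2 and Ctdsp1. They were chosen by name, and each has a row of its own among the 1973 miRNA genes of the count tables. Small RNA below 30 nt was sequenced from total RNA of embryonic limbs (strain B6NCrl, embryonic day 15.5, both sexes pooled, healthy, with no allele or treatment named). The study held 1 group with 2 biological replicates, a pool of 78 embryos for replicate 1 and a pool of 62 embryos for replicate 2. There was no second tissue, stage or treatment, so levels are described and the 2 libraries are compared with each other.

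A miRNA is cut from a hairpin precursor, and either arm of the hairpin (5p or 3p) can give a mature strand that represses messenger RNAs through its seed, bases 2 to 8 from the 5′ end. The miR-26 miRNAs are known to repress Ezh2, a histone methyltransferase that holds back muscle genes in progenitor cells, and several genes that carry cells into S phase. Their hosts encode small phosphatases of the C-terminal domain of RNA polymerase II, which also remove phosphate from the retinoblastoma protein. In tissues where this was studied, host and miRNA are known to be expressed together and to slow proliferation. Host messenger RNAs were not measured in this small RNA assay.

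The mature sequences are shown first because reads with several alignments entered no gene, and an arm at more than 1 locus can give such reads. The sequences are from RefSeq (GRCm38.p6, the assembly also called mm10), where all 3 genes matched by symbol, and capitals mark the seed.
miR-26a-5p, from Mir26a-1 and from Mir26a-2: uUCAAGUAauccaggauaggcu
miR-26b-5p, from Mir26b: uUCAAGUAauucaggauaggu
miR-26a-1-3p, from Mir26a-1: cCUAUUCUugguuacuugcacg
miR-26a-2-3p, from Mir26a-2: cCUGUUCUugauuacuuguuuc
miR-26b-3p, from Mir26b: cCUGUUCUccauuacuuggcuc

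All 3 genes had the same 5p seed, UCAAGUA, and no other mature miRNA in the RefSeq table had it. The 5p arms of Mir26a-1 and Mir26a-2 were identical over 22 bases. Counted from the 5′ end of miR-26a-5p, miR-26b-5p differed by C11U and C21U over the 21 bases compared, both outside the seed. The 3p arms differed more. Between Mir26a-1 and Mir26a-2 there were 6 differences over 22 bases, and 1 of them, A4G, lay in the seed. Mir26a-2 and Mir26b had the same 3p seed, CUGUUCU, with 4 differences elsewhere in the arm. That 3p seed was also found in Mir6932 and Mir7039, which had 0 sense counts and 0 or 1 sense count in the libraries.

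The hairpins are printed from GENCODE M21, where they equal the RefSeq hairpins, with both mature arms in capitals, to show where the genes are alike.
Mir26a-1 hairpin: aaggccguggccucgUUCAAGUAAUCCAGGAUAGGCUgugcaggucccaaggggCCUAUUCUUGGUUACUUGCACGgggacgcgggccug
Mir26a-2 hairpin: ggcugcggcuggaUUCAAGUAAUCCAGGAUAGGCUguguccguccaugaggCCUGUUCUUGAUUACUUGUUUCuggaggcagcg
Mir26b hairpin: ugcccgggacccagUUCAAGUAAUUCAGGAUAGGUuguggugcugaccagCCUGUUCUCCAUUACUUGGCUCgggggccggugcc

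The longest stretch common to the Mir26a-1 and Mir26a-2 hairpins was 25 bases and held the whole 5p arm. With Mir26b the longest common stretch was 11 bases for Mir26a-1 and 10 bases for Mir26a-2. Each hairpin was cut into all its 20-base windows, and every window was searched in the 2202 miRNA precursors of GENCODE M21. Of 71 windows of Mir26a-1, 6 were also in another precursor, and of 65 windows of Mir26a-2, 6 were. All 3 windows within the 5p arm of each were among them, and none of the 3 windows within the 3p arm. Of 66 windows of Mir26b, 0 were in another precursor. Reads with several alignments were totalled on a line of their own in the tables and entered no gene. Each table summed to the same number of reads in its 3 count columns, so that each read stood in 1 line. A full-length read of miR-26a-5p has at least 2 places in the genome, whereas the 3p arms of all 3 genes and the 5p arm of Mir26b each occurred in 1 miRNA precursor.

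**Figure D1:**
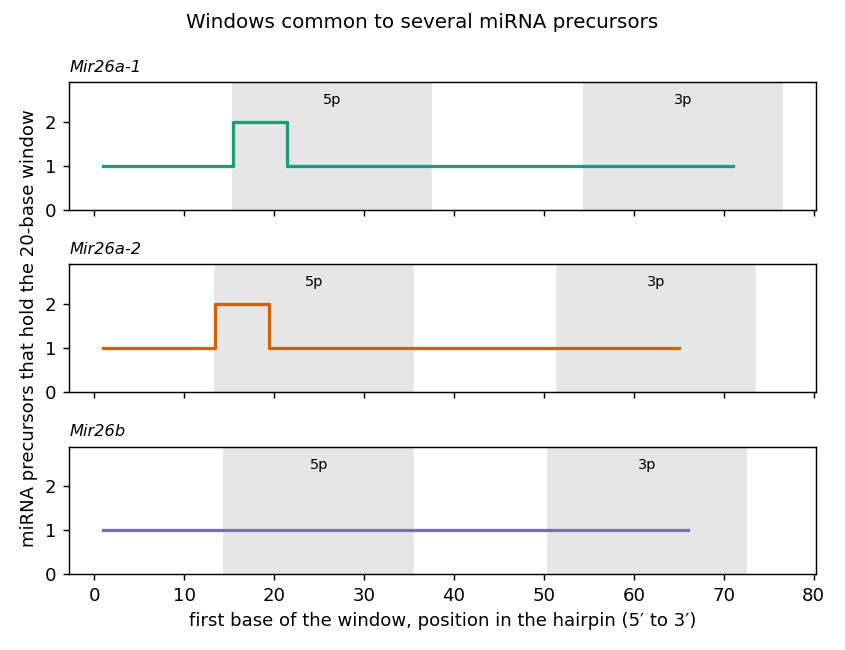
For each Mir26 hairpin, the number of miRNA precursors of GENCODE M21 that hold the 20-base window (y axis) is plotted against the first base of the window in the hairpin (x axis), with the mature arms shaded. Windows in 2 precursors lie in and just after the 5p arm of Mir26a-1 and Mir26a-2, while every window of Mir26b is in 1 precursor.

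On mm10, the hairpin of Mir26a-1 (ENSMUSG00000065513.1) spans 119031796 to 119031885 of chromosome 9, plus strand. In the principal host transcript Ctdspl-201 it is in intron 5 of 7, which is 3283 bases long. Mir26a-2 (ENSMUSG00000065430.1) spans 126995530 to 126995613 of chromosome 10, also on the plus strand, in intron 5 of 7 of Ctdsp2-202, which is 1946 bases long. Mir26b (ENSMUSG00000065468.1) spans 74394310 to 74394394 of chromosome 1, plus strand, in intron 4 of 6 of Ctdsp1-201, which is 564 bases long. All 3 genes share the strand of their host, and no gene is annotated on the opposite strand. No annotated transcript of Ctdspl or Ctdsp1 has an exon over Mir26a-1 or Mir26b. For Mir26a-2, the shorter transcripts Ctdsp2-201 and Ctdsp2-203 have a first exon that overlaps the hairpin by 1 base.

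The host genes differ in size, from 5.78 kb for Ctdsp1 and 21.3 kb for Ctdsp2 to 117.5 kb for Ctdspl. The hairpin starts 2.80 kb after the annotated host start for Mir26b, 16.8 kb after it for Mir26a-2 and 105.3 kb after it for Mir26a-1. None of the 3 belongs to a dense miRNA cluster. The nearest other annotated miRNA gene is Mir546, 2.83 kb from Mir26a-2, with 1 and 2 sense counts in the libraries. For Mir26b it is Mir1928 at 187.7 kb, and for Mir26a-1 it is Gm22008 at 1032 kb.

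Levels are given as sense counts scaled to 1000000 sense counts of all miRNA genes in a library (CPM). The libraries held 4263630 and 5151214 such counts, of 9187400 and 10851823 reads. Reads with several alignments numbered 2696741 and 3224256, or 0.632 and 0.626 times the sense counts. A gene with 10 or more sense counts in each replicate was called detected, which 340 genes were, and all 3 Mir26 genes were among them. The limb was represented by Mir203 of epidermis, Mir140 of cartilage, Mir206 of skeletal muscle and the Hox cluster genes Mir196b and Mir10b, at means of 7919 to 72531 CPM. Of the genes chosen for other organs, the cardiac Mir208a had 5.15 CPM, the hepatocyte gene Mir122 had 71.8 CPM and Mir375, chosen for islets, had 615 CPM. Mir375 thus lay above the median detected gene (167 CPM), and which cells of the limb samples gave its counts was not tested. The 3 neuronal Mir124 genes had 0 counts, but they encode the same mature miR-124, whose reads would have several alignments, so these rows do not show whether it was present.

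Mir26b was one of the most counted miRNA genes of the limb, and both Mir26a genes were counted at very low levels. Mir26b had 96974 sense counts in replicate 1 and 128024 in replicate 2, which is 22744 and 24853 CPM. That was 2.27% of the first library, with a Wilson 95% interval of 2.26 to 2.29, and 2.49% of the second, with 2.47 to 2.50. The mean was 23799 ± 1491 CPM (SD, n = 2), and it ranked 11 of the 340 detected genes in each replicate.

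Mir26a-2 had 193 and 239 sense counts, or 45.3 CPM (Wilson 95% interval 39.3 to 52.1) and 46.4 CPM (40.9 to 52.7). Its mean was 45.8 ± 0.799 CPM (SD, n = 2), and it ranked 228 in replicate 1 and 224 in replicate 2. Mir26a-1 had 38 and 54 sense counts, or 8.91 CPM (Wilson 95% interval 6.49 to 12.2) and 10.5 CPM (8.04 to 13.7). Its mean was 9.70 ± 1.11 CPM (SD, n = 2), and it ranked 282 and 270. The order Mir26b, Mir26a-2, Mir26a-1 held in both libraries, and the counting intervals of the 3 genes did not overlap in either. The median detected gene stood at 167 CPM by its mean over the libraries, above both Mir26a genes and below Mir26b. These are counts assigned to a locus. How many reads of miR-26a-5p were among the reads with several alignments was not tested, so the counts give no level of miR-26a-5p itself.

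**Figure D2:**
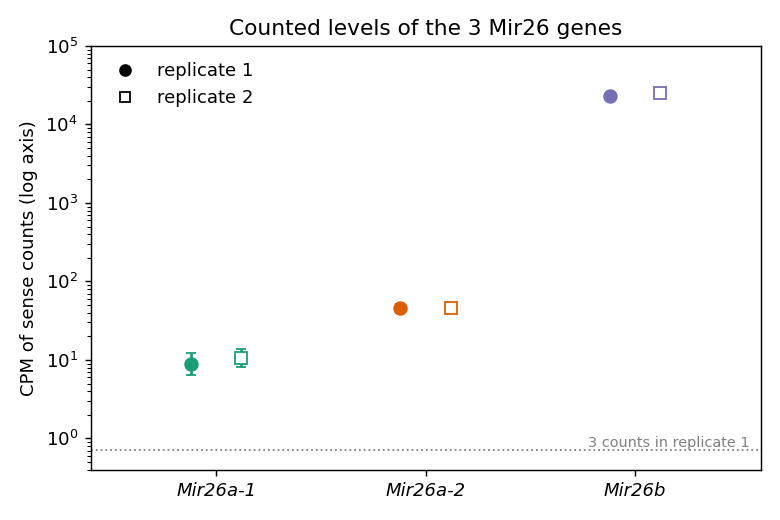
CPM of sense counts on a log axis for the 3 Mir26 genes, with filled circles for replicate 1, open squares for replicate 2 and bars for the Wilson 95% interval of counting error. Mir26b lies at 22744 and 24853 CPM, Mir26a-2 at 45.3 and 46.4 CPM and Mir26a-1 at 8.91 and 10.5 CPM, all above the dotted line at 3 counts.

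Nearly all counts of the family came from Mir26b. Summed, the 3 genes took 2.28% of all sense counts in the first library (Wilson interval 2.27 to 2.29) and 2.49% in the second (2.48 to 2.50), a mean of 2.39% ± 0.149 (SD, n = 2). Mir26a-1 and Mir26a-2 together gave 231 of the 97205 counts of the family in replicate 1, or 0.238% (Wilson 95% interval 0.209 to 0.270). In replicate 2 they gave 293 of 128317 counts, or 0.228% (0.204 to 0.256). The reads with several alignments were 11674 times as many as the Mir26a counts in replicate 1 and 11004 times as many in replicate 2. That total covers every read with several alignments in a library, from any RNA, and the part from miR-26a-5p was not tested.

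The proportions of the 3 genes were nearly the same in both pools. Mir26b exceeded Mir26a-2 by 502-fold in replicate 1 (Clopper-Pearson 95% interval 436 to 582) and 536-fold in replicate 2 (472 to 611). Over Mir26a-1 the excess was 2552-fold (1859 to 3606) and 2371-fold (1817 to 3156). Mir26a-2 itself exceeded Mir26a-1 by 5.08-fold (3.57 to 7.40) and 4.43-fold (3.28 to 6.06). Fisher's exact test on the counts of 2 genes in 2 libraries gave an adjusted p of 0.753 for each of the 3 pairs. A p of this size does not show that the proportions are equal, and the intervals above bound the difference at this depth. For both Mir26a genes the sequence that occurs in 1 precursor is the 3p arm, the loop and the flanks, while for Mir26b it is the whole hairpin. The tables give 1 count per gene, so the arm from which the counted reads came was not analysed here.

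Strand gave no further counts for the family. Antisense counts were 0 for all 3 genes in both libraries. For Mir26b this allows an antisense share of up to 0.00309% in replicate 1 and 0.00234% in replicate 2. For Mir26a-2 it allows up to 1.55% and 1.26%, and for Mir26a-1 up to 7.89% and 5.56%, limits that cover counting error only.

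The position of Mir26a-1 and Mir26a-2 was next set beside that of other genes with an arm in several precursors. For 916 genes of the tables the mature arms in RefSeq could be searched in all precursors. Of these, 56 had both arms listed with exactly 1 of them also in another precursor, like both Mir26a genes, and 36 of the 56 were detected. The median detected gene of this kind had 51.6 CPM, and Mir26a-2 and Mir26a-1 ranked 21 and 30 among the 36. The highest were Mirlet7f-2 at 2791 ± 111, Mir92-1 at 2295 ± 100.1, Mir16-1 at 1535 ± 90.0 and Mir181b-2 at 1437 ± 16.4 CPM (SD, n = 2). Of 508 genes with both arms in 1 precursor each, like Mir26b, 223 were detected with a median of 263 CPM and 80 of them at 1000 CPM or more. Of 19 genes with both arms in several precursors, 5 were detected, also with a median of 263 CPM. For 333 genes only 1 arm was listed, and 47 of them were detected with a median of 43.3 CPM. The medians cover detected genes only, which were 64.3% of the 56 genes and 43.9% of the 508. These are descriptions of gene classes that also differ in family and function.

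Within families defined by a common seed, the Mir26 family included, a contrast of levels by copies of the arm was found for most. For 12 seeds, at least 1 detected gene had the arm in several precursors and at least 1 detected gene had its arms in 1 precursor each. In 10 of the 12, the highest gene of the second kind exceeded the highest of the first. The excess was 519-fold for Mir26b over Mir26a-2, the highest of the 12, followed by 351-fold for Mir30e (16415 CPM) over Mir30c-1 (46.8 CPM) and 51.0-fold for Mir196b over Mir196a-2 (799 CPM). For Mir107 (1044 CPM) over Mir103-2 (56.3 CPM) it was 18.5-fold. The exceptions were Mir92-1 (2295 CPM), which lay above Mir25 (500.4 CPM), and Mir7-1 (40.6 CPM), which lay above Mir7b (4.70 CPM). The median over the 12 was 19.8-fold, with let-7 entering through both its arms. No test was made, because seeds were counted on the same 2 libraries and members of a family share sequence. Reads with several alignments entered no gene, so the counting rule itself can favour genes of the second kind. Its part in the contrast was not tested. For many seeds the number of genes also differed between the kinds, and only the highest of each was compared.

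**Figure D3:**
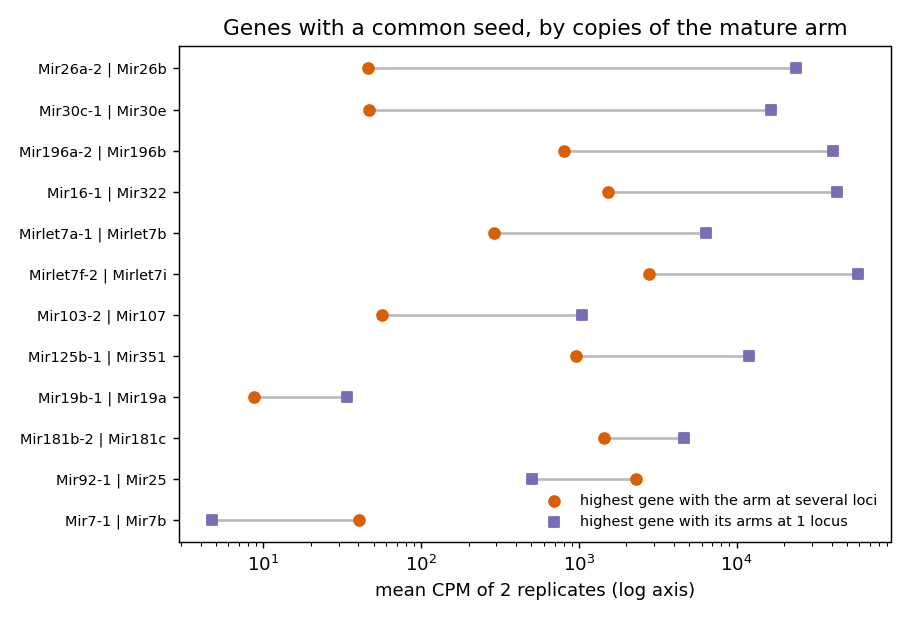
Mean CPM of 2 replicates on a log axis for 12 seeds, each row naming the highest detected gene with the arm in several precursors (circle) and the highest detected gene with its arms in 1 precursor each (square). The row of Mir26a-2 and Mir26b is the widest, at 45.8 and 23799 CPM, and the last 2 rows, Mir92-1 with Mir25 and Mir7-1 with Mir7b, have the opposite order.

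Between the pools, Mir26b was slightly higher in replicate 2 and the Mir26a genes were not distinguished from counting noise. Mir26b was 1.09-fold higher in replicate 2, a log2 ratio of 0.13 (95% interval 0.12 to 0.14, adjusted p = 1.68e-95, exact two-sided binomial test with Benjamini-Hochberg adjustment over the 340 detected genes). For Mir26a-2 the log2 ratio was 0.04 (-0.24 to 0.32, adjusted p = 0.884, same exact test), and for Mir26a-1 it was 0.23 (-0.39 to 0.87, adjusted p = 0.597, same exact test). At this depth a difference of Mir26a-1 of up to 1.83-fold between the libraries lies within its interval. Of the 3 genes 1 was past the threshold of 0.05, against 50.9% of all detected genes (25.3% higher and 25.6% lower in replicate 2), so the count for the family is near the background. Among genes with a mean of at least 1000 CPM, as for Mir26b, 90.8% were past it, and among genes with under 1000 counts over both libraries, as for both Mir26a genes, 16.6%.

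The difference of Mir26b was small beside the spread of other genes. Of all detected genes 65.6% had a larger absolute log2 ratio, and the SD of the log2 ratio over them was 0.38. The test compares 2 libraries with counting error and says nothing about conditions. Of the 5 limb markers, 4 were past the threshold, 2 higher and 2 lower in replicate 2, a count near the background of 90.8% at these levels, and their summed level was 166927 and 178242 CPM. The muscle gene Mir206 was 2.31-fold lower in replicate 2 (11050 and 4787 CPM), and the cartilage gene Mir140 was 1.04-fold lower. The Hox cluster gene Mir196b was 1.27-fold higher (35894 and 45632 CPM), and the epidermal Mir203 was 1.14-fold higher. The part of tissue composition in the difference of Mir26b was not tested, and in bulk tissue fewer cells of a type and less RNA per cell cannot be told apart.

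**Figure D4:**
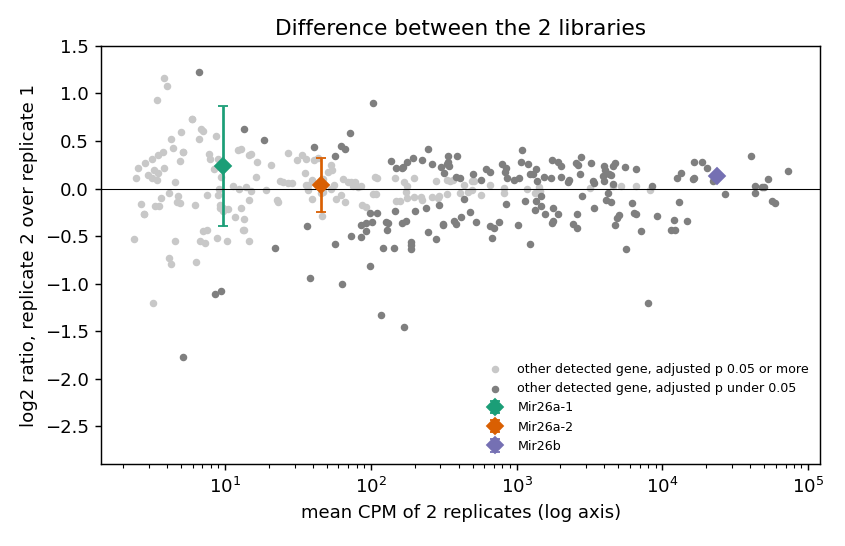
Log2 ratio of CPM, replicate 2 over replicate 1, against mean CPM on a log axis for 340 detected genes, in dark grey where the adjusted p of the exact binomial test is under 0.05 and light grey otherwise, with the Mir26 genes as diamonds and 95% intervals. Mir26b sits at 0.13 with an interval narrower than its symbol, while the intervals of Mir26a-2 (-0.24 to 0.32) and Mir26a-1 (-0.39 to 0.87) include 0.

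The genes nearest to each Mir26 gene in level were found by the larger of the 2 absolute log2 differences of CPM, over 2 libraries. For Mir26b they were the endothelial Mir126a at 22336 ± 903 CPM (SD, n = 2, distance 0.11), Mir23a at 26971 ± 821 CPM (0.28) and the mesenchymal Mir214 at 20274 ± 2148 CPM (0.28). For Mir26a-2 they were Mir3072 at 45.3 ± 0.934 CPM (0.06), Mir30c-1 at 46.8 ± 0.831 CPM (0.07) and Mir33, from an intron of the sterol regulator gene Srebf2, at 47.3 ± 2.25 CPM (0.08). For Mir26a-1 they were Mir466n at 9.17 ± 1.03 CPM (0.08), Mir1930 at 9.31 ± 0.561 CPM (0.11) and Mir211 at 8.94 ± 1.36 CPM (0.16). With 2 libraries this is a likeness of level and not of regulation.

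Other miRNAs known to repress Ezh2 were led by Mir214, at a level close to that of Mir26b. It had 18755 CPM in replicate 1 and 21793 CPM in replicate 2. Mir101b had 1199 ± 149, Mir138-2 had 108 ± 2.97 and Mir101a had 104 ± 3.06 CPM (SD, n = 2). All 5 genes of this list were detected and held 2.18% ± 0.228 of the sense counts. Reads with several alignments entered none of these rows, so the values are levels of gene rows and not of mature miRNAs. In replicate 2, 2 of the 5 were higher past the threshold, Mir214 and Mir101b, and 0 were lower, against 25.3% and 25.6% of all detected genes. Both lie above 1000 CPM, where 90.8% of genes were past the threshold in either direction. The median log2 ratio of the list was -0.06, beside 0.02 for all detected genes.

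Other miRNAs known to restrain entry into S phase held a larger share than the Mir26 genes. The 20 genes with a row, of the let-7, Mir15 and Mir16, Mir34 and Mir322 groups, were all detected and held 18.8% ± 0.548 of the sense counts (SD, n = 2). Mirlet7i stood at 58918 ± 4504, Mirlet7g at 48099 ± 324, Mir322 at 43119 ± 627 and Mirlet7d at 13099 ± 900 CPM. Mir26b lay between Mir322 and Mirlet7d. In replicate 2, 7 of the 20 passed the threshold as higher and 6 as lower, with a median log2 ratio of -0.06. The shares over all detected genes were 25.3% and 25.6%, and 90.8% in either direction for genes of at least 1000 CPM. No row was matched to Mir497, Mirlet7e or Mirlet7f-1. This list too holds genes with an arm in several precursors, such as Mir16-1 and Mirlet7f-2.

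A list of 13 other genes whose hosts are paralogs of each other, as the Ctdsp genes are, had levels far below Mir26b. Mir26a-2 and Mir26a-1, at 45.8 and 9.70 CPM, lay within the range of the list, 4.56 to 1044 CPM. The list is a choice and not all such families, and the Dnm genes with Mir199 and Mir214 are not in it. The 13 genes, from introns of Pank, Myh, Slit, Ptprn, Trpm and Copz genes, were all detected, with a joint share of 0.220% ± 0.00807 of sense counts (SD, n = 2). Mir107, in the pantothenate kinase gene Pank1, led with 1044 ± 55.1 CPM. Its relatives Mir103-2 and Mir103-1 had 56.3 ± 1.05 and 4.56 ± 0.143 CPM, so that this family had 1 high and 2 low genes, as the Mir26 genes did. Both Mir103 genes of the list, and Mir218-1 and Mir218-2, also have an arm in several precursors. Mir204 had 334 ± 41.6, Mir152 had 221 ± 9.49 and Mir499 had 168 ± 111 CPM.

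Past the threshold, 3 of these 13 genes were higher in replicate 2 and 3 were lower, with a median log2 ratio of 0.04. That is near the 25.3% and 25.6% of all detected genes. The 3 that were lower, and the only ones over 1.5-fold, were those of the myosin genes. Mir499 was 2.74-fold lower, Mir208b 2.52-fold and Mir208a 3.42-fold, the last on 34 and 12 counts.

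Seed matches were looked for in the longest annotated 3′ UTR of the host genes and of Ezh2, on the messenger strand only. The motif TACTTGA pairs with bases 2 to 8 of all 3 5p arms. Among 21039 genes with a 3′ UTR in GENCODE M21, 9.67% held it. The 2 sites found are shown with the motif in capitals.
Ctdsp2 site, bases 1080 to 1086 after the stop codon of Ctdsp2-201: gttgctctTACTTGAtttgccaa
Ezh2 site, bases 248 to 254 after the stop codon of Ezh2-214: ataaagaaTACTTGAacttgttg

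The 3′ UTR of Ctdsp2 (3489 bases) held 1 match, and 23.1% of 1918 UTRs within 20% of its length held at least 1. The 3′ UTR of Ezh2 (402 bases) held 1 match, and 2.89% of 1797 UTRs of like length did. No match was in the 3′ UTRs of Ctdspl (3349 bases) and Ctdsp1 (1701 bases), where 22.2% of 2030 and 10.9% of 2897 UTRs of like length had one. A match is a description of sequence, and no messenger RNA was measured here.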

How the data were processed

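MicroRNA-seq of 2 limb libraries was used. The deposited tables hold whole-number counts of reads per miRNA gene, not normalized. Per the deposited README the assembly was mm10 and the gene annotation M4. From the values, the 3 unnamed columns were read as counts on both strands, on the sense strand and on the antisense strand, since the first was the sum of the others for every gene. The aligner, the counter, their versions and trimming are not given in the sources used here. Sense counts were scaled to 1000000 sense counts of miRNA genes (CPM), and the lines for unmapped, multiply aligned and unassigned reads entered no total.

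Identifiers were matched without their version to GENCODE M21 (GRCm38), for 1894 of the 1973 rows. RefSeq gave 1738 mature sequences. Copies of an arm were sought in miRNA precursors and not in the whole genome.

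Genes with at least 10 sense counts in both libraries were tested between them with an exact conditional binomial test (scipy 1.17.1, Python 3.11.15) and Benjamini-Hochberg adjustment. Counts were also simulated for these 340 genes with counting error only. In them, 50 of 50 genes changed 2-fold, 37 of 50 changed 1.5-fold, 24 of 50 changed 1.1-fold and 1 of 140 unchanged genes were called. The simulation held no variation between pools, so it gives no error rate for real pools. A quasi-likelihood test needs a second group. As alternative scalings, TMM came from edgeR 4.0.16, and median of ratios was computed directly in R 4.3.3. No label names molecular identifiers. Intervals and the limit of 3 counts for a count of 0 therefore cover counting error only. The replicates are separate pools of embryos.

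The members and lists were chosen with earlier results of these data known. Named genes are the 3 members and the 3 genes nearest in CPM to each. From each list they are the 4 highest and any past the threshold with over 1.5-fold, and from the genes with 1 arm in several precursors up to 6. Genes named beside these, such as those of the seed comparison, Mir103-1, Mir546, Mir6932 and Mir7039, were chosen after their values were seen.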

Additional observations from a re-analysis of the deposited data

How the results depend on the processing

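The level of a Mir26 gene depended on the total it was divided by. With all reads of the table as the total, the means were 11176 CPM for Mir26b, 21.5 for Mir26a-2 and 4.56 for Mir26a-1, and the family share was 1.12%. With the reads of several alignments added to the sense total, they were 14609, 28.1 and 5.95 CPM and 1.46%. With counts irrespective of strand, Mir26a-2 stood at 44.3 CPM, a move larger than the small spread between its replicates, while the other values moved by less than theirs. Leaving out each replicate gave 22744 to 24853 CPM for Mir26b, 45.3 to 46.4 for Mir26a-2 and 8.91 to 10.5 for Mir26a-1. The call of Mir26b and the direction of all 3 genes were the same under every count minimum, scaling, strand setting and test tried, except that Mir26a-1 is not among the genes with at least 100 counts. The log2 ratio of Mir26b ranged from 0.11 with median of ratios scaling to 0.14 irrespective of strand. The number of genes past the threshold ranged from 167 to 184. In the list of miRNAs that restrain entry into S phase, 13 genes became 11 with median of ratios scaling and 12 with TMM, and in the list with paralogous hosts 6 became 7 with median of ratios scaling and 5 with at least 100 counts. The windows common to both Mir26a precursors numbered 8 with 18 bases and 4 with 22 bases, and those of Mir26b 0 with either. The low counts of both Mir26a genes, above all of Mir26a-1, limit how closely their ratios between libraries were measured. No paired analysis was possible because the study has 1 group.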
